A study of Mus musculus with 6 samples.

Results

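The fragments described here are short pieces of the 3′ end of transfer RNAs (tRNAs), 16 to 19 nucleotides (nt) long and ending in the CCA that every mature tRNA carries. They were taken from a table of 1336 tRNA-derived fragment sequences counted in mouse heart, of which 347 are of the CCA-ending class. Of these, 89 sequences qualified by class and length, after 10 sequences of the same lengths were set aside because their last 13 nt are those of tRF_3_204, tRF_3_61 or tRF_3_62. The 89 sequences fell into 32 groups that share their last 13 nt, here called ends, and an end is named after its most abundant member. The rule uses class, length and sequence and no measured level.

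The study deleted Elac2, the gene of RNase Z, in the heart and compared 3 control with 3 knockout C57BL/6 mice. All 6 mice carried loxP-flanked Elac2 alleles (L/L). The controls have no cre and are also labelled Elac2 +/+, while the knockouts carry cre driven by the muscle creatinine kinase promoter and are labelled Elac2 -/-. No age is given. RNA came from whole crude hearts, in which cells without that promoter's activity keep the gene, and small RNAs of 15 to 35 nt were selected. Each mouse was run as 4 technical replicates, merged into 1 count per mouse in a way the labels do not state. Fragment counts cannot show whether the gene was deleted or whether the tissue was heart, so neither label was checked.

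RNase Z cuts the trailer off the 3′ end of a tRNA precursor, after which a CCA-adding enzyme attaches the CCA to which the amino acid is joined. A fragment that ends in CCA therefore comes from a tRNA to which the CCA had been added. It does not show how the trailer of that tRNA was removed. Short CCA-ending fragments arise from a cut in the T-loop, the loop next to the 3′ arm, and are known as tRF-3a, with a longer class, tRF-3b, cut a few bases upstream. Both classes have been found with Argonaute proteins, the carriers of microRNAs.

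The ends differ in sequence in the part that was the 3′ strand of the acceptor stem, and the most abundant member of each of the 8 leading ends is printed below 5′ to 3′ as DNA letters, with the shared last 13 nt in capitals. These 8 carry the results. The further end of tRF_3_86 was added because its adjusted p was under 0.05, and it is described only, for a reason given below. The amino acid is given from a match to a mouse tRNA gene, or, for the tyrosine, tryptophan and 2 of the leucine ends, which matched no tRNA gene in the tables used, from the known sequence of that tRNA as background.
tRF_3_68, leucine: atcccACCGCTGCCACCA
tRF_3_97, tyrosine: ttccgGCTCGAAGGACCA
tRF_3_75, tyrosine, second form: atccgGCTCGAAGGACCA
tRF_3_71, leucine: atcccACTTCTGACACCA
tRF_3_77, serine: atcctGCCGACTACGCCA
tRF_3_65, tryptophan: atcacGTCGGGGTCACCA
tRF_3_70, leucine: atcccACTCCTGACACCA
tRF_3_72, threonine: atcccAGCGGTGCCTCCA
tRF_3_95, glycine: ttcccGGGCGGCGCACCA
tRF_3_86, arginine-like: gtcccGCCAGAGTCGCCA

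The matches place the leucine sequence tRF_3_68 at the end of n-TLaag4, on chromosome 7 from 120917517 to 120917598 (GRCm38, plus strand), within the annotated start window of Polr3e. The serine sequence tRF_3_77 matched n-TSaga9 on chromosome 4 (10874064 to 10874145, plus strand) and both n-TStga1 and n-TStga2 on chromosome 13, so 1 fragment stands for several genes. The threonine sequence tRF_3_72 matched n-TTagt9 on chromosome 7 (35234770 to 35234843, minus strand). The glycine sequence tRF_3_95 matched n-TGccc7 on chromosome 17 (25875088 to 25875158, plus strand), inside an annotated transcript of Mettl26. In all, 8 of the 32 ends matched a RefSeq tRNA gene. The search covered annotated transcripts and start windows, not the whole genome, so other ends and further gene copies could have been missed. A match also does not show from which gene copy the RNA came. The 2 leucine sequences tRF_3_71 and tRF_3_70 differ by T9C, counted from 1 at the 5′ end of tRF_3_71, which lies inside the last 13 nt and keeps them apart as ends. The tyrosine forms tRF_3_97 and tRF_3_75 differ by T1A, counted in the same way, and share 1 end. tRF_3_86 matched no gene in this search. It differs by G6A from tRF_3_85, which shares its last 13 nt with tRF_3_67, and tRF_3_67 matched the arginine gene n-TRtct4 on chromosome 11.

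The libraries held 235046, 773252 and 378924 tRNA-fragment counts in controls 1 to 3 and 55946, 45354 and 61712 in knockouts 1 to 3. The scaling between the groups is large: library totals were multiplied by TMM factors of 0.217 to 1.02 for controls, whereas the factors of knockouts were 1.85 to 2.53. Levels below are in CPM, counts relative to the scaled totals, and each sequence is counted whole, so no length enters. With library totals alone the median log2 fold change of the 254 sequences tested moved from 0.06 to 2.13, and the calls moved from 40 higher and 43 lower to 104 higher and 7 lower. Levels are therefore given relative to the TMM scale, and shares within a library, which need no scaling, are given beside them. A sequence was tested where at least 3 libraries reached the filter on low counts, which is relative to the library total: it asked for 16, 53 and 26 counts in controls 1 to 3 and for 4, 4 and 5 counts in knockouts 1 to 3. A rare fragment could thus enter the test through the knockouts but hardly through the controls. Of the 254 sequences tested, 74 reached the filter in knockouts only and 1 in controls only, and the 74 hold 35 of the 40 higher calls. Nothing states that the mice differed in litter or day, and p-values measure the spread between these 3 libraries of each group.

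Members made up a small part of the tRNA-fragment counts. They took 2622, 801 and 917 counts in the controls, which is 1.12%, 0.104% and 0.242% of each library, and 1148, 1073 and 1135 counts in the knockouts, which is 2.05%, 2.37% and 1.84%. The mean share was 0.487% ± 0.549 (SD, n = 3) in controls and 2.09% ± 0.265 in knockouts (exact two-sided permutation test, p = 0.1, the smallest p that 3 against 3 allows). All 3 knockouts lay above all 3 controls, and the denominator holds all other tRNA fragments. In bulk tissue, fewer cells of a type and less RNA per cell cannot be told apart.

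Within the CCA-ending class the order was the other way round. Members held 37.6%, 34.1% and 34.8% of CCA-ending counts in controls and 29.6%, 29.99% and 28.6% in knockouts, with means of 35.5% ± 1.84 and 29.4% ± 0.733 (SD, n = 3 each, exact permutation p = 0.1). The groups did not overlap. The ends set aside by the rule lay the other way: they held 33.8%, 17.3% and 21.8% of the 16 to 19 nt counts in controls and 46.1%, 40.5% and 41.4% in knockouts. With those ends put back, the share of 16 to 19 nt fragments in the class was 3.79 percentage points higher in knockouts (exact permutation p = 0.5), so the lower share of the members rests on which ends are counted.

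A few tRNAs supplied most of the counts. The 3 most abundant ends (leucine tRF_3_68, tyrosine tRF_3_97 and leucine tRF_3_71) held 55.8% to 68.2% of member counts in each library, and the 6 most abundant held 85.7% to 90.3%. At the other extreme, 23 of the 32 ends had fewer than 100 counts over all 6 libraries together, and 45 of the 89 sequences had fewer than 10. No control count was seen for 13 sequences and no knockout count for 21. A count of 0 allows up to 3 counts in that library, and intervals and limits of this kind cover counting error only.

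The leucine end of tRF_3_68 was the most abundant by the mean of the control and knockout means. In controls alone, the ends of tRF_3_97 and tRF_3_71 had higher means. The level of the tRF_3_68 end was 1770, 710 and 1139 CPM in controls and 2578, 2454 and 2841 CPM in knockouts. Every knockout lay above every control, and the knockouts were close together while control 2 was the lowest. The means were 1206 ± 533 and 2624 ± 198 CPM (SD, n = 3 each), a log2 fold change of 1.12 ± 0.585 (SE), which did not pass the threshold of 0.05 (edgeR quasi-likelihood test, Benjamini-Hochberg adjusted p = 0.169). The value depended on single controls and on the scaling: without control 1 it was 1.48 (edgeR adjusted p = 0.0198), without control 2 it was 0.83 (adjusted p = 0.475), and on the scale of CCA-ending totals it was 0.49 (adjusted p = 0.551). As a share of member counts, this end held 16.2%, 14.9% and 18.97% in controls and 30.1%, 26.3% and 28.5% in knockouts. The mean share was 16.7% ± 2.10 and 28.3% ± 1.90, again with no overlap (exact permutation p = 0.1, adjusted p = 0.45 over the 9 ends named).

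**Figure D1:**
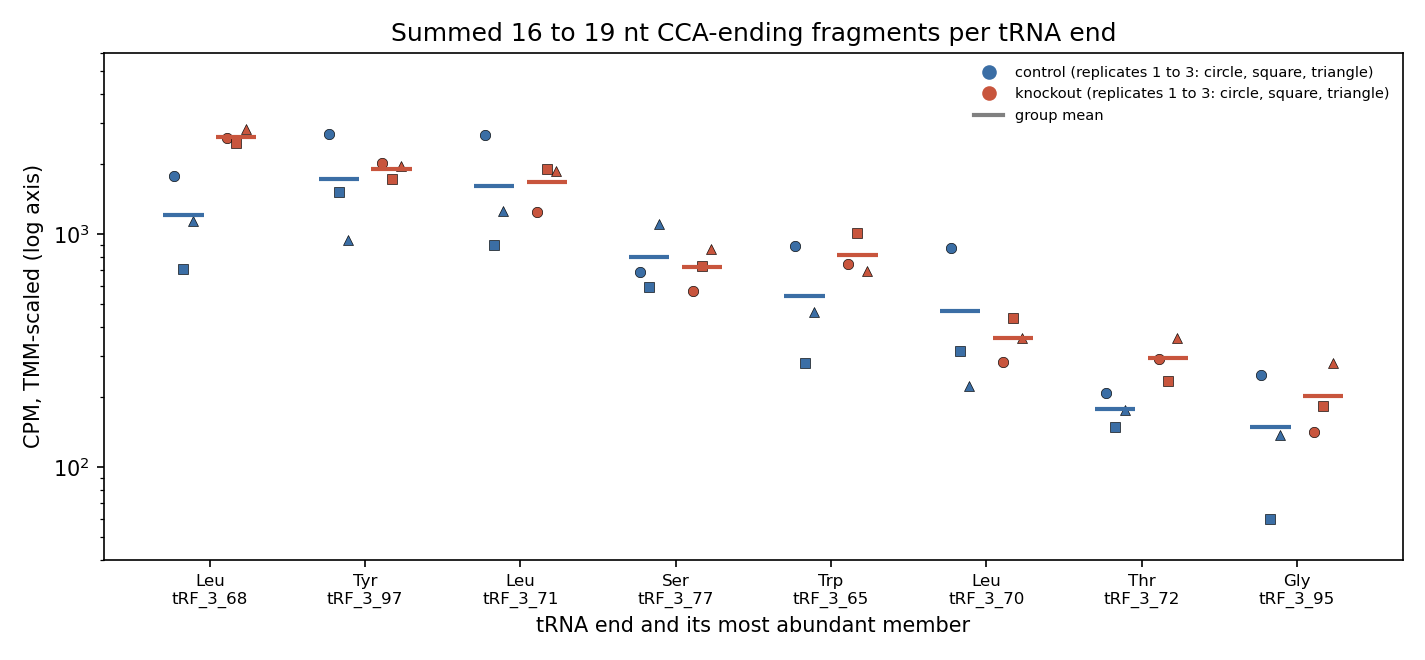
Level of each of the 8 leading ends, in CPM on a log axis, with 1 point per library and the mean of each group as a line; controls and knockouts are drawn in separate colours. The leucine end tRF_3_68 has all 3 knockouts (2454 to 2841 CPM) above the controls (710 to 1770 CPM), and the other ends except threonine tRF_3_72 overlap between the groups.

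The tyrosine end of tRF_3_97 followed, at 2690, 1516 and 949 CPM in controls and 2025, 1732 and 1964 CPM in knockouts. Its groups overlapped and the log2 fold change was 0.15 ± 0.590 (edgeR, adjusted p = 0.893). The leucine end of tRF_3_71 came next, at 2669, 901 and 1263 CPM in controls against 1248, 1906 and 1868 CPM in knockouts, with a log2 fold change of 0.05 (edgeR, adjusted p = 0.957). For both ends the sign turned negative when the libraries were scaled by DESeq2's size factors or by their CCA-ending totals, so neither has a direction. Among these 3 ends the order of the means differed between the groups, and the control spread of each (SD 533 to 934 CPM) was wider than the gaps between their control means of 1206, 1718 and 1611 CPM.

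The next 3 ends showed no separation. Serine tRF_3_77 measured 691, 591 and 1106 CPM in controls and 568, 731 and 868 CPM in knockouts. Tryptophan tRF_3_65 measured 891, 280 and 465 CPM against 747, 1010 and 693 CPM. Leucine tRF_3_70 measured 870, 316 and 223 CPM against 284, 435 and 360 CPM, with control 1 far above the others. Their log2 fold changes were -0.14, 0.58 and -0.39, with edgeR adjusted p-values of 0.902, 0.544 and 0.721. The signs of tRF_3_77 and tRF_3_70 turned positive with library totals alone.

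Threonine tRF_3_72 and glycine tRF_3_95 were the least abundant of the leading 8. tRF_3_72 measured 208, 149 and 177 CPM in controls and 291, 235 and 360 CPM in knockouts. The knockouts all lay above the controls, yet the log2 fold change of 0.73 did not pass (edgeR, adjusted p = 0.450). On the scale of CCA-ending totals it fell to -0.0015. tRF_3_95 measured 250, 59.7 and 137 CPM against 142, 183 and 281 CPM (log2 fold change 0.42, edgeR adjusted p = 0.712), and its groups overlapped.

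**Figure D2:**
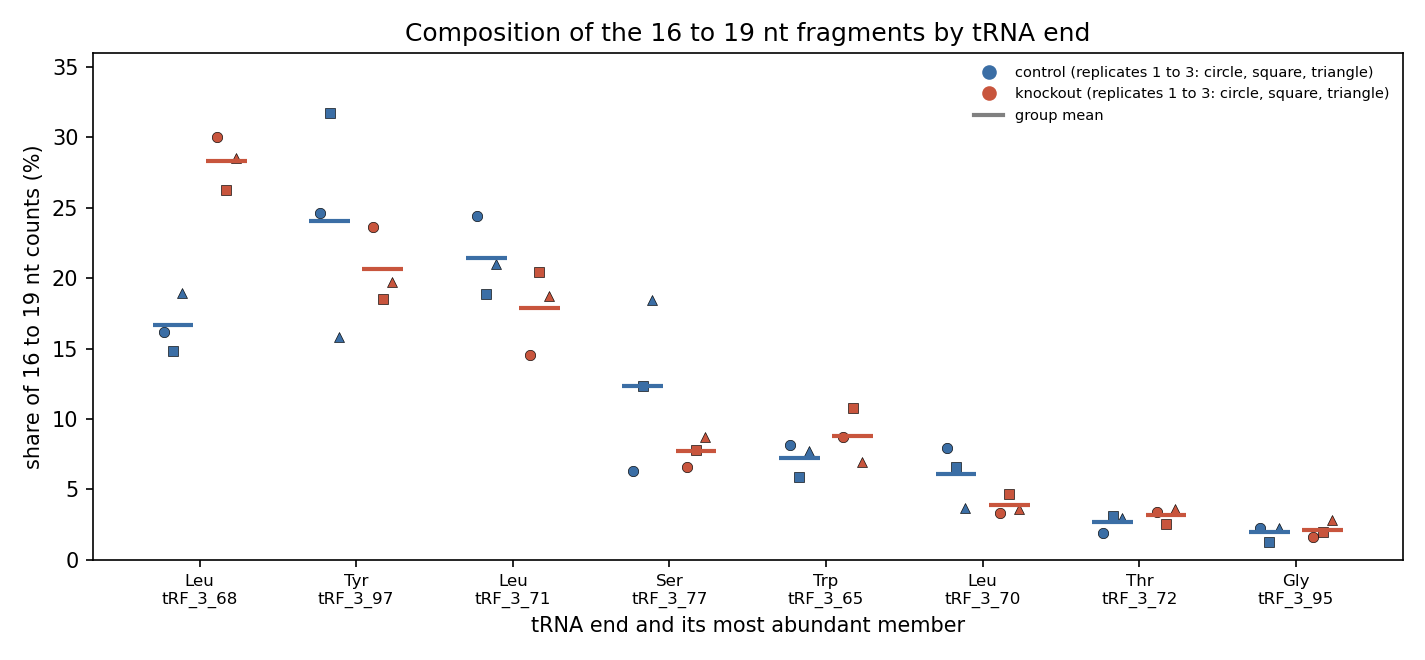
Share of member counts held by each of the 8 leading ends, in percent, with 1 point per library and the mean of each group as a line. tRF_3_68 holds 14.9% to 18.97% in controls and 26.3% to 30.1% in knockouts, and the other leading ends overlap between the groups.

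The end of tRF_3_86 was nearly confined to the knockouts. It had 3, 0 and 0 counts in controls and 8, 8 and 11 in knockouts, or 12.5, 0 and 0 CPM against 59.8, 69.6 and 96.5 CPM. All of its control counts came from control 1. The summed counts, 3 against 27, give a ratio of 13.9 after scaling, with a 95% counting interval of 4.28 to 71.6. It was the only end with an edgeR adjusted p under 0.05 (0.00653, log2 fold change 3.70 ± 0.913), but it reached the filter on low counts through the knockouts only. Entry through the knockouts only favours an end that is higher there, so these fitted values describe the end and support no call. The fold rests on 3 control counts, with 2 controls at 0.

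The end has 2 members. Its 18 nt sequence, tRF_3_86, also reached the filter through the knockouts only. It had 1, 0 and 0 counts in controls and 4, 6 and 7 in knockouts, a ratio of 26.3 with a counting interval of 4.12 to 1098 (log2 fold change 4.25 ± 0.961, edgeR adjusted p = 0.00349). With no filter on low counts edgeR gave the sequence an adjusted p of 0.105 and the end 0.0666, and DESeq2 gave 0.0652 and 0.0545. With at least 10 counts asked of 3 libraries, neither could be tested, and without knockout 3 the end had an edgeR adjusted p of 0.0556. No CCA-ending fragment of 20 to 23 nt with this end was counted in any library, so no longer form stood beside it.

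Over the members, 16 of the 89 passed the filter on low counts, and the other 73 had 1 to 42 counts over the 6 libraries and were not tested. Of the 16, 1 was higher in knockouts and 0 were lower (edgeR, adjusted p under 0.05). Over all 254 sequences tested, 15.7% were higher and 16.9% were lower by the same rule, so the members' share of calls was no higher than the background. The 1 call is that of tRF_3_86, which like tRF_3_92 reached the filter through the knockouts only, while 4 members reached it in all 6 libraries, 10 in some of each group and 0 in controls only. At an unadjusted p under 0.05, edgeR had 2 members higher and 0 lower. DESeq2 called 0 members and limma-voom called 2 higher and 0 lower. The median log2 fold change was 0.49 over the 16 members and 0.06 over the 254. The members' median was -0.20 with CCA-ending totals and 2.26 with library totals alone. The median over the 254 moved too, to -0.66 and 2.13. With no filter, which tests a wider set, the medians were -0.27 over all 89 members and -0.51 over all 1336 sequences. With members summed per end, 12 of the 32 ends were tested, 1 was higher and 0 lower, against 15.6% higher and 16.8% lower over all 250 rows of that fit. The authors' deposited table gave an adjusted p for 42 of the members, of which 0 were higher and 0 lower. In the authors' deposited table tRF_3_86 had a log2 fold change of 4.52 and an adjusted p of 0.0654.

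The 20 ends that were not tested held 1 to 69 counts each. Some were seen in 1 group only or nearly so, and the following were picked after their values were seen, so they have no test. The end of tRF_3_64 had 11, 4 and 6 counts in controls and 1, 0 and 1 in knockouts. The end of tRF_3_79 had 24, 6 and 8 counts against 1, 4 and 0. In both, each knockout lay below each control on the CPM scale, and neither could reach the filter with these counts. The end of tRF_3_29 had 16 counts, all in control 1, and thus describes 1 library. Of the ends that were tested but lay outside the leading 8, tRF_3_82, picked in the same way, was at 50.0, 29.8 and 39.3 CPM in controls and 120, 104 and 114 CPM in knockouts (log2 fold change 1.47 ± 0.642, edgeR adjusted p = 0.0992), and it too reached the filter through the knockouts only.

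Length varied little between the groups. Of the 89 sequences, 12 were 16 nt, 21 were 17 nt, 35 were 18 nt and 21 were 19 nt long, but most counts fell on 18 nt. The 18 nt share was 87.6%, 86.9% and 85.1% in controls and 87.3%, 86.3% and 88.02% in knockouts, with means of 86.5% ± 1.33 and 87.2% ± 0.862 (exact permutation p = 0.6, adjusted over the 4 lengths 0.8). The 19 nt share was 5.31% ± 0.948 in controls and 3.69% ± 0.752 in knockouts (exact permutation p = 0.1, adjusted p = 0.4), with no overlap. Just inside the limits, the 16 nt members had 61, 12 and 26 counts in controls and 20, 35 and 26 in knockouts, and those of 19 nt had 119, 51 and 46 against 52, 37 and 35. Just outside, the 7 CCA-ending sequences of 15 nt had 4, 1 and 6 counts against 3, 7 and 7, and the 13 of 20 nt had 27, 14 and 6 against 9, 8 and 1.

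Lengths differed from end to end. Pooled over libraries, the leucine ends of tRF_3_68 and tRF_3_71 were 99.3% and 99.1% 18 nt, so nearly all of them began at the same base. The tyrosine end of tRF_3_97 was 90.3% 18 nt and 9.66% 19 nt. The serine end of tRF_3_77 was 79.1% 18 nt with 15.4% at 17 nt. The tryptophan end of tRF_3_65 was spread over 3 lengths, with 17.5% at 16 nt, 34.6% at 17 nt and 46.6% at 18 nt. Its 18 nt share was 48.6%, 38.3% and 53.5% in controls and 49.0%, 46.6% and 36.7% in knockouts, so the spread was seen in every library and the groups overlapped. The glycine end of tRF_3_95 was 56.4% 18 nt and 22.1% 19 nt when pooled, but its groups differed in the 19 nt share. That share was 23.3%, 50.0% and 61.9% in controls and 0%, 19.05% and 0% in knockouts, from totals of only 60, 10 and 21 counts against 19, 21 and 32. The means were 45.1% ± 19.8 and 6.35% ± 10.997, with no overlap. The threonine end of tRF_3_72 had a 19 nt share of 18%, 20% and 7.41% in controls and 5.13%, 3.70% and 7.32% in knockouts, also with no overlap, although 7.41% and 7.32% nearly meet. Both shares were picked after their values were seen and have no test.

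**Figure D3:**
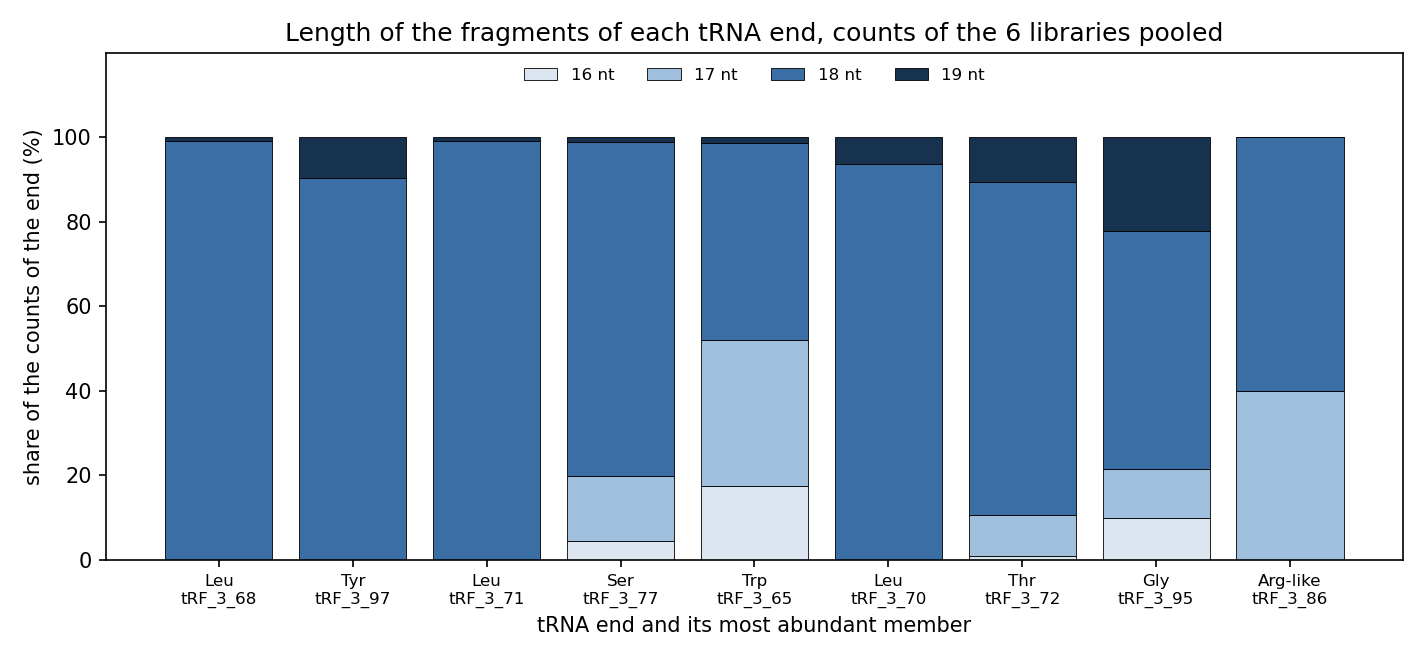
Share of each named end's counts at 16, 17, 18 and 19 nt, in percent, pooled over the 6 libraries as stacked bars. The leucine bars are nearly all 18 nt (99.3% for tRF_3_68), and the tryptophan bar of tRF_3_65 is divided between 16 nt (17.5%), 17 nt (34.6%) and 18 nt (46.6%).

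Most members have the same sequence as the tail of a longer fragment. Whether the short fragments were cut from the longer ones was not tested. Of the 89 sequences, 75 are the 3′ part of a CCA-ending sequence of 20 to 23 nt, and 26 of the 32 ends had both forms. The longer forms mostly start with a T in the T-loop and are 22 nt long. The most abundant ones with 4 of the leading ends are printed with the last 13 nt in capitals, so that the bases they hold beyond the 18 nt forms above can be seen on the 5′ side.
tRF_3_180, leucine: tcgaatcccACCGCTGCCACCA
tRF_3_214, tyrosine: tcgattccgGCTCGAAGGACCA
tRF_3_183, leucine: tcgaatcccACTTCTGACACCA
tRF_3_185, threonine: tcgaatcccAGCGGTGCCTCCA

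A first base T held 94.1% ± 1.34 of the counts of 20 to 23 nt fragments in controls and 94.3% ± 1.20 in knockouts. The 18 nt members began with A in 75.3% ± 7.50 of counts in controls and 82.9% ± 3.12 in knockouts (exact permutation p = 0.3). The base before CCA, which helps the synthetase recognise the tRNA, was A in 79.4% ± 7.42 of member counts in controls and 83.9% ± 1.23 in knockouts (exact permutation p = 0.4), and it was C in no member.

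The balance of short and long forms differed from tRNA to tRNA. The short share, that is the percentage of an end's 16 to 23 nt counts that is 16 to 19 nt, was 92.3% ± 4.06 in controls and 95.8% ± 1.53 in knockouts for leucine tRF_3_68. It was 91.5% ± 4.13 and 90.7% ± 2.89 for tryptophan tRF_3_65, and 88.7% ± 5.74 and 87.5% ± 6.76 for serine tRF_3_77. The other 2 leucine ends were nearer to balance, at 49.1% ± 10.1 and 51.5% ± 2.68 for tRF_3_71 and 39.0% ± 5.34 and 44.7% ± 7.93 for tRF_3_70. In every library tRF_3_68 lay above both other leucine ends, so tRNAs for the same amino acid had different balances.

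Some tRNA ends were seen almost wholly as the long form. The end of tRF_3_113 had 4, 1 and 0 short counts in controls and none in knockouts, against 373, 54 and 50 long counts in controls and 30, 14 and 15 in knockouts. The end of tRF_3_82 had 12, 5 and 6 short counts in controls and 16, 12 and 13 in knockouts, against 128, 248 and 350 long counts and 199, 180 and 219. Both ends were picked after their values were seen.

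Over the 26 ends with both forms, the short share was 55.8%, 51.7% and 50.9% in controls and 63.8%, 63.3% and 60.1% in knockouts. The knockouts all lay above the controls, with means of 52.8% ± 2.61 and 62.4% ± 2.02, a difference of 9.58 percentage points (exact permutation p = 0.1, the smallest p possible). Library scaling cancels in this value. Without the leucine end of tRF_3_68 the difference was 6.07 points, and with the ends set aside by the rule put back it was 0.150 points (exact permutation p = 0.8). When the 8 leading ends weighed the same, the means were 65.4% ± 0.993 and 68.7% ± 1.61 (exact permutation p = 0.1), a setting chosen after seeing the data.

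Single ends differed in direction. Threonine tRF_3_72 had a short share of 27.5%, 36.8% and 45.0% in controls and 56.5%, 58.7% and 54.7% in knockouts, with no overlap. Tyrosine tRF_3_97 had 75.03%, 82.7% and 75.9% against 89.1%, 89.2% and 83.9%, also with no overlap. For each of these 2 ends the exact permutation p was 0.1, and the p adjusted over the 8 ends was 0.4. Glycine tRF_3_95 went the other way in its means, at 48.3% ± 21.1 and 35.6% ± 7.62, with overlapping groups (exact permutation p = 0.4). The threonine means differed by 20.2 points.

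**Figure D4:**
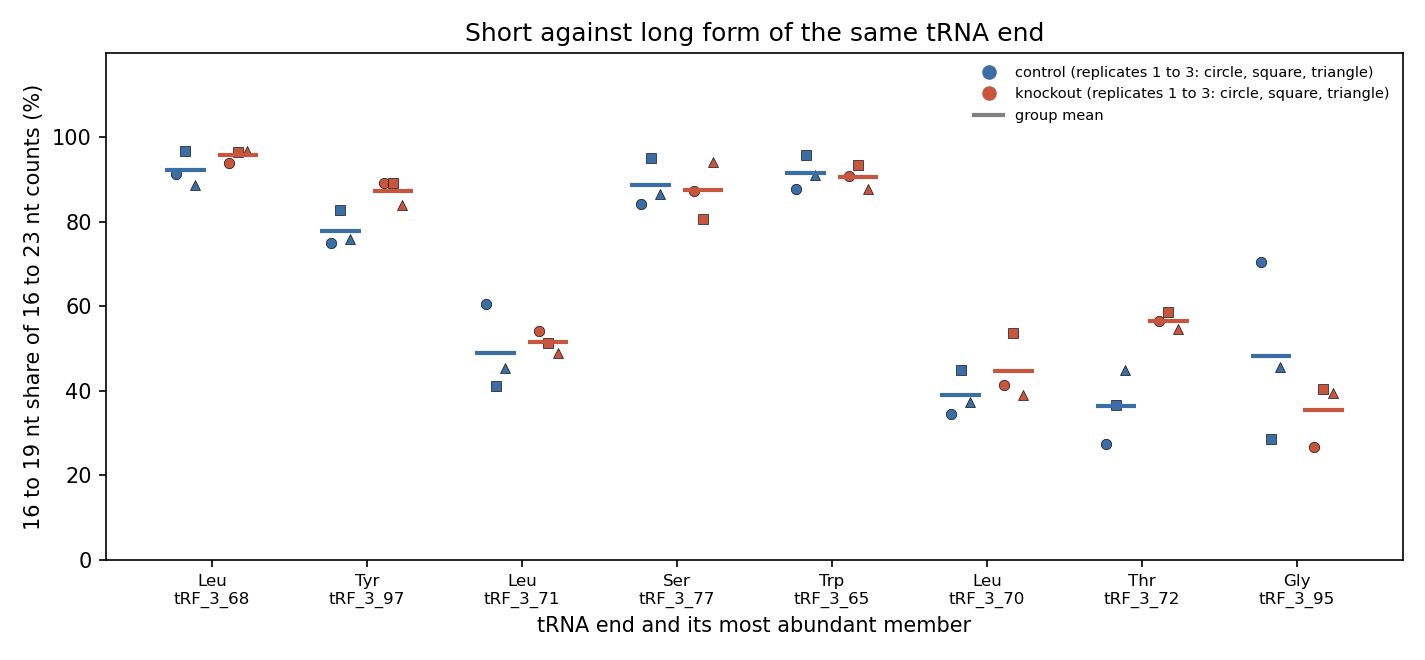
Short share (16 to 19 nt as a percentage of 16 to 23 nt counts) of the 8 leading ends, with 1 point per library and the mean of each group as a line. Threonine tRF_3_72 lies at 27.5% to 45.0% in controls and 54.7% to 58.7% in knockouts, and tRF_3_68 lies near the top of the scale in both groups.

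The long forms were compared in the same fit. Of 74 CCA-ending sequences of 20 to 23 nt that share an end with a member, 16 were tested, 0 were higher and 1 was lower (edgeR, adjusted p under 0.05), beside 15.7% higher and 16.9% lower over all 254 sequences. The median log2 fold change was -0.25 over these 16 and 0.06 over the 254. With upper-quartile scaling these medians were 0.15 and 0.43, and with library totals alone 1.71 and 2.13. At an unadjusted p under 0.05 edgeR also had 0 higher, as did DESeq2, while limma-voom had 1 higher. The 1 lower sequence was tRF_3_200, the long form of the tRF_3_113 end, at 1541, 316 and 321 CPM in controls and 224, 104 and 132 CPM in knockouts (log2 fold change -2.24 ± 0.784, edgeR adjusted p = 0.0368). This call was lost with upper-quartile scaling, library totals, limma-voom, the replicate block, without control 1 and without each knockout in turn (adjusted p between 0.0533 and 0.551). The long tyrosine sequence tRF_3_214 had 124, 21 and 24 counts in controls and 15, 6 and 23 in knockouts (log2 fold change -1.13 ± 0.792, edgeR adjusted p = 0.323). The long glycine sequence tRF_3_213 had 23, 23 and 25 counts against 48, 30 and 45 (log2 fold change 1.35 ± 0.687, edgeR adjusted p = 0.159).

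The tyrosine end holds several forms. Tyrosine tRNAs occur as gene copies that differ in the T-loop, and the fragments of 18 and 19 nt show this base, which lies at position 18 counted from the 3′ end. It is T in tRF_3_97 and A in tRF_3_75. tRF_3_97 had 469, 202 and 102 counts in controls and 137, 85 and 112 in knockouts, which is 1953, 1205 and 668 CPM against 1024, 740 and 982 CPM. tRF_3_75 had 113, 21 and 24 counts in controls and 100, 95 and 91 in knockouts, which is 471, 125 and 157 CPM against 747, 827 and 798 CPM. The A form thus lay higher in every knockout than in every control, and the T form overlapped.

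Neither form passed the test in the fit over all sequences. The log2 fold change was 1.64 ± 0.690 for tRF_3_75 (edgeR, adjusted p = 0.0813) and -0.48 ± 0.616 for tRF_3_97 (edgeR, adjusted p = 0.610). The sign for tRF_3_97 turned positive with library totals alone. Within the end, where scaling cancels, the A form held 17.5%, 8.27% and 16.6% of the 18 and 19 nt counts in controls and 38.7%, 48.7% and 40.6% in knockouts. The mean was 14.1% ± 5.08 in controls and 42.7% ± 5.31 in knockouts, and the T form held 83.3% ± 5.63 and 56.0% ± 5.50. This pair was picked after its values were seen and is therefore given with no test. Leaving out each library in turn kept the difference between 25.6 and 30.6 percentage points.

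The long forms of the tyrosine end showed the same bases in other proportions. The A form held 6.98%, 9.43% and 10.9% of the 20 to 23 nt counts in controls and 12.1%, 20.8% and 16.3% in knockouts, from only 4 to 15 counts per library. A further form with C at that position held 24.3% ± 5.39 of the long counts in controls and 21.3% ± 8.45 in knockouts. Among the 18 and 19 nt fragments the C form held 1.31% ± 0.671 and 0.395% ± 0.372. The C form was therefore counted mainly as a long fragment, in both groups. The other leading ends, except tryptophan, carried 1 base at that position in every library.

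**Figure D5:**
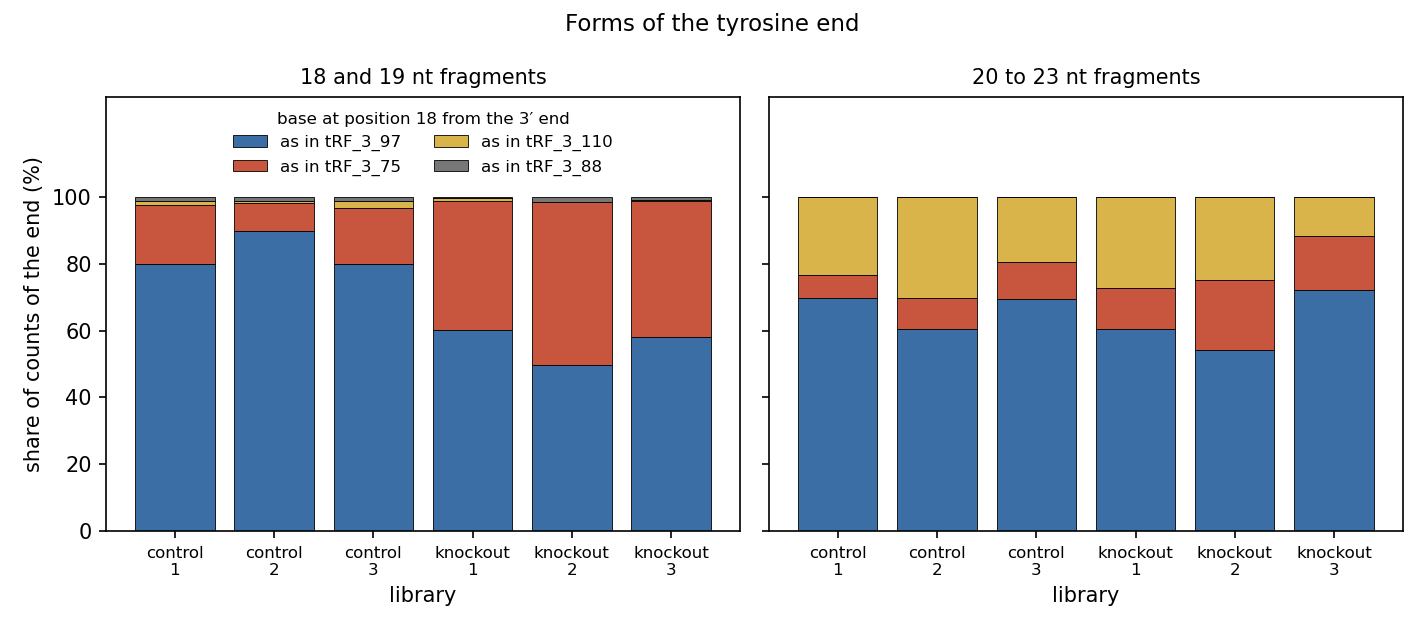
Counts of the tyrosine end in each library, divided by the base at position 18 from the 3′ end. Values are in percent of the end's counts, separately for fragments of 18 and 19 nt and for those of 20 to 23 nt. The form of tRF_3_75 takes 8.27% to 17.5% of the short counts in controls and 38.7% to 48.7% in knockouts, and the form of tRF_3_110 takes a visible part of the long fragments only.

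The other strand of the acceptor stem lies at the 5′ end of a tRNA, so 5′ fragments that could pair with a named end were listed. Fragments of 15 to 35 nt whose first 7 bases pair with the 7 bases before the last 4 of a named end, G-T pairs allowed, numbered 67. None was found for the tyrosine, threonine and arginine-like ends. Pairing alone does not show that a fragment came from the same tRNA, and the amino acid given is that of the end. Of those listed for tRF_3_68, 9 pair only with 2 G-T pairs. Of the 67, 10 were tested, 2 were higher and 1 was lower (edgeR, adjusted p under 0.05), beside 15.7% higher and 16.9% lower over all 254 sequences, so these shares were near the background. The median log2 fold change was 0.78 over the 10 and 0.06 over the 254. With no filter, with at least 10 counts in 3 libraries, with CCA-ending totals and with DESeq2, 0 were higher. Both of the higher fragments reached the filter through the knockouts only, and their p-values are given as a description. The 3 called sequences are printed with the pairing 7 bases in capitals.
tRF_5_41, leucine: GGTAGCGtggccgagcgg
tRF_5_325, glycine: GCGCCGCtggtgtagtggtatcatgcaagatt
tRF_5_420, glycine: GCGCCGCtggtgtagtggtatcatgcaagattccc

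For the leucine end of tRF_3_68, the 33 pairing 5′ fragments together measured 266, 101 and 327 CPM in controls and 605, 905 and 719 CPM in knockouts. All knockouts lay above all controls, as for the CCA-ending fragments of that end, and this sum was not tested. The same held for the 3 serine fragments, at 33.3, 155 and 164 CPM in controls and 224, 453 and 281 CPM in knockouts. The groups of the CCA-ending serine end, however, overlapped. Nearly all of the serine 5′ counts came from tRF_5_129, with 8, 26 and 25 in controls and 29, 50 and 32 in knockouts. That sequence reached the filter through the knockouts only. Its log2 fold change of 1.41 ± 0.765 did not pass (edgeR, adjusted p = 0.184). Of the leucine fragments, tRF_5_41 had 2, 0 and 5 counts in controls and 13, 4 and 12 in knockouts (log2 fold change 2.54 ± 0.885, edgeR adjusted p = 0.0368). It was not called with control 2, knockout 1 or knockout 3 left out in turn (edgeR adjusted p between 0.123 and 0.161). The glycine fragments gave both signs. tRF_5_325 (32 nt) had 3, 1 and 2 counts against 4, 5 and 9 (log2 fold change 2.16 ± 0.756, edgeR adjusted p = 0.0368). tRF_5_420 (35 nt) had 54, 67 and 34 counts against 11, 11 and 2 (log2 fold change -2.10 ± 0.779, edgeR adjusted p = 0.0487). The tRF_5_420 call was lost with upper-quartile scaling, without control 2 and without each knockout in turn (edgeR adjusted p between 0.0781 and 0.218). With library totals alone its log2 fold change was 0.21 (edgeR adjusted p = 0.834). Beyond the settings above, tRF_5_325 was not called with DESeq2's size factors, limma-voom, the replicate block or without each knockout (edgeR or limma-voom adjusted p between 0.0511 and 0.255). The 13 fragments that pair with both leucine ends tRF_3_71 and tRF_3_70 measured 329, 221 and 334 CPM in controls and 291, 383 and 307 CPM in knockouts, with overlapping groups. The tryptophan fragments had 7 counts in all.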

How the data were processed

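Raw counts per fragment sequence were deposited by the authors as whole numbers, 1 library per mouse. Bowtie2 2.2.9, cutadapt 1.1.4 and DESeq2 1.16.1 are named in the submitters' processing notes, with build mm10. The authors' deposited table of comparisons gave log2 fold changes, a signal (mean normalised count), a test score and p-values; it was used only where named, and the deposited normalised values were not used.

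Counts were fitted across all 1336 sequences with edgeR 4.0.16 (R 4.3.3): TMM scaling, filterByExpr with a minimum count of 10, quasi-likelihood test and Benjamini-Hochberg adjustment, threshold 0.05. The fit was checked on data simulated at the scaled totals. These differ less between libraries than the real totals, so the check did not cover that spread in depth, on which the filter depends. Members were also summed per shared last 13 nt. Shares were compared by exact two-sided permutation tests (SciPy 1.17.1). Alternatives used DESeq2 1.42.0 and limma 3.58.1.

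Named ends are the 8 with the highest mean CPM plus every end called, each with its most abundant member, and every member called. tRNA genes were matched through RefSeq promoter windows and transcripts of GRCm38. The members and lists were chosen with earlier results of these data known.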

Additional observations from a re-analysis of the deposited data

How the results depend on the processing

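Counts of calls depended on scaling and filtering. Members higher in knockouts numbered 5 with library totals alone, 2 with upper-quartile scaling, 0 with no filter, 0 with DESeq2, 2 with limma-voom and 5 with no end set aside, and 0 to 3 with 1 library left out (3 without control 1). Ends higher in knockouts numbered 5 with library totals, 0 with no filter, 0 with at least 10 counts in 3 libraries and 0 with DESeq2, and 0 to 3 with 1 library left out. Long forms higher numbered 3 with library totals; those lower numbered 0 with library totals and 2 with no filter. The pairing 5′ fragments higher numbered 5 with library totals and 0 with no filter, and those lower 0 and 2. With 1 library left out, each of these 4 counts lay between 0 and 1. The cause of these changes was not tested.

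Several log2 fold changes changed sign. With library totals alone tRF_3_97 was 1.28, tRF_3_77 was 1.87 (its end 1.91) and tRF_3_70 was 1.21 (its end 1.23). tRF_3_71 was -0.0702 with DESeq2's size factors, -0.54 with CCA-ending totals, -0.27 with no filter and -0.0706 with DESeq2. Its end was -0.0700, -0.54, -0.27 and -0.0703. The end of tRF_3_97 was -0.0282, -0.49, -0.20 and -0.0284 under the same 4 settings. tRF_3_77 was 0.28 with upper-quartile scaling and 0.0198 with at least 10 counts in 3 libraries, and its end 0.31 and 0.0538. With CCA-ending totals the end of tRF_3_72 was -0.0015 and that of tRF_3_95 -0.16. With 1 library left out the ends ranged from -0.76 to 0.38 (tRF_3_70), -0.26 to 0.60 (tRF_3_71), -0.33 to 0.23 (tRF_3_77) and -0.18 to 0.59 (tRF_3_97), and the sequences from -0.76 to 0.42 (tRF_3_70), -0.26 to 0.60 (tRF_3_71) and -0.34 to 0.21 (tRF_3_77). Without control 1, tRF_3_95 reached 2.13 (edgeR adjusted p = 0.0174).

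The difference in member share of CCA-ending counts reversed to 3.79 points with no end set aside. That in the 18 nt share was -1.45 points with no end set aside, -1.47 without the most abundant end and -0.0672 to 1.22 with 1 library left out. That in the share of member counts ranged from -0.145 to 0.446 points for tRF_3_95 and from -7.54 to 0.404 for tRF_3_97 with 1 library left out.

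Deviations from the group means correlated at -0.0493, 0.268 and 0.0233 between same-numbered libraries, and at -0.277 to 0.213 between differently numbered ones. Values from 3 mice per group cannot show whether the replicate numbers paired the mice. With the replicate block, 1 member and 1 end were higher, 0 long forms were lower and 1 pairing 5′ fragment was higher. The sequence tRF_3_86 and its end had adjusted p-values of 0.0283 and 0.0268 there (edgeR). Both had reached the filter on low counts through the knockouts only. Most ends had fewer than 100 counts, which together with the filter on low counts limited what could be tested. The end of tRF_3_86 was tested with 30 counts, mostly in knockouts. That of tRF_3_73 had 69 counts, mostly in controls, and was not tested.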
